A study of Mus musculus with 10 samples.

Results

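The mitochondrial respiratory chain of cultured mouse mast cells was examined through the nuclear genes that encode its 5 complexes. Members were chosen by name: rows of the deposited count table whose Ensembl identifiers belong, in the GRCm38 annotation, to protein-coding genes with symbols starting with Ndufa, Ndufb, Ndufc, Ndufs or Ndufv, the 4 symbols Sdha, Sdhb, Sdhc and Sdhd, and symbols starting with Uqcr, Cox4 to Cox8 or Atp5. The rule used no measured value. It gave 93 of the 49671 gene rows: 44 genes of complex I, 4 of complex II, 8 of complex III, 20 of complex IV and 17 of complex V. The complex I genes comprised 7 core subunits, 29 accessory subunits and the 8 assembly factors Ndufaf1 to Ndufaf8. Ndufa4, named as a complex I gene and now known as a subunit of complex IV, was placed with complex IV, as was its relative Ndufa4l2. Cyc1, the cytochrome c1 gene of complex III, is not reached by the rule.

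Complex I oxidises NADH and complex II oxidises succinate, and both pass electrons to coenzyme Q. Complex III passes them on to cytochrome c and complex IV passes them from there to oxygen, while complexes I, III and IV pump protons that drive ATP synthesis by complex V. Apart from complex II, each complex joins subunits encoded in the nucleus with subunits encoded in mitochondrial DNA, and separate assembly factors put the parts together. In mast cells, secretory cells filled with granules, mitochondrial ATP production is known to take part in degranulation and cytokine release. The nuclear promoters are known targets of general activators such as NRF1 (nuclear respiratory factor), GABP (also called NRF2) and YY1.

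The cells were bone marrow-derived mast cells from wild-type C57BL/6 mice, kept for 6 to 8 weeks in interleukin 3 (IL-3). The 10 libraries formed 6 groups: IL-3 only (2 libraries), stem cell factor at 100 ng/mL (SCF, the ligand of the receptor KIT, 2 libraries), SCF with transforming growth factor beta (TGF-β) at 1 ng/mL (2 libraries) or at 10 ng/mL (2 libraries), and TGF-β without SCF at 1 ng/mL (1 library) and at 10 ng/mL (1 library). Of TGF-β without SCF, the library at 1 ng/mL is numbered replicate 2 and that at 10 ng/mL replicate 1. Dose and replicate number cannot be told apart there. Stimulation lasted 72 h. IL-3 is labelled as 5 ng/mL for growth and as 10 ng/mL for the sample source. The SCF dose in the combinations and the time of the IL-3 group are not stated. Nor is it stated that replicate libraries are from separate cultures, so the p-values reflect the spread between libraries alone, and that may be technical. In bulk RNA a change in the make-up of the culture and a change in RNA per cell cannot be told apart.

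Between 1237382 and 2323916 reads per library were counted on genes, which was 16.4% to 26.6% of all reads counted. One library stood apart: TGF-β at 1 ng/mL had the lowest share of reads on genes (16.4%), with 14.5% of its gene counts on satellite repeat loci against 3.07% to 9.39% in the other 9. For comparisons that use it, the total count of called members and the median over members are also given without it. Single genes are given without it in part only. The satellite share was lower in the 6 libraries with SCF (3.07% to 5.48%) than in the 4 without (5.93% to 14.5%). All 12 mast cell markers were counted in every library, and their summed level was 58463 to 99768 CPM (counts scaled to library size, as defined below). Macrophage markers summed to 15.2 to 36.3 CPM, neutrophil markers to 0 to 1.70 CPM and fibroblast markers to 0 to 3.89 CPM. The 7 lymphocyte markers summed to 0.518 to 0.849 CPM without SCF and 3.50 to 12.5 CPM with SCF, where 2.00 to 11.4 CPM came from Ncr1, with Cd3e, Cd3g and Ms4a1 at 0 in all libraries. The 5 dendritic cell markers summed to 20.4 and 41.2 CPM in the TGF-β libraries without SCF and to 0.630 to 17.4 CPM elsewhere, mainly from Itgax where TGF-β was given and mainly from Zbtb46 where it was not, with Xcr1 and Siglech at 0. The 5 eosinophil markers summed to 3.26 to 14.0 CPM in the 6 libraries with SCF and 17.0 to 28.0 CPM in the 4 without, mainly from Ccr3, with Prg2, Epx and Ear1 at 0. The 4 basophil markers summed to 458 to 702 CPM, mainly from Cd200r3, and their Mcpt8 was at 6.30 to 24.98 CPM with SCF and 0.518 to 6.99 CPM without. The 7 erythroid and platelet markers summed to 1317 to 1839 CPM, nearly all from Itga2b, with Pf4 and Ppbp at 0. Whether cells of these kinds, or the satellite share, had a part in the results below was not tested.

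Levels below are CPM of gene counts scaled by edgeR's trimmed mean of M values (TMM). Levels of different genes are compared only after division by transcript length (the median of the gene's annotated protein-coding transcripts), in CPM per kilobase (kb), taken as the mean of the 6 groups. Of the 93 members, 87 passed the filter on low counts. The median member of complex IV stood at 232 CPM per kb, that of complex V at 141, complex III at 129, complex II at 89.3 and complex I at 61.9. Complex I here includes the 8 assembly factors, so its median is not over subunits alone. By these medians the middle gene of the terminal oxidase was several times as high per length as that of complex I. Complex IV also had the widest range among its tested members, from 3.58 to 433 CPM per kb.

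Within complex I the highest member was Ndufa1, a small accessory subunit of the membrane arm, at 324 CPM per kb, and the lowest was the accessory subunit Ndufb2 at 3.43. Both values depend on the annotated lengths used, 419 bases for Ndufa1 and 2413 for Ndufb2. In complex II the iron-sulfur subunit Sdhb (121 CPM per kb) and the flavoprotein Sdha (111) were close, and the membrane anchor Sdhc was lowest at 17.5. The 4 proteins form 1 enzyme, and its transcripts thus spread over a wide range per length. In complex III the hinge protein gene Uqcrh stood at 260 CPM per kb and the core protein gene Uqcrc2 at 53.2. Complex IV was led by Ndufa4 (433 CPM per kb) and Cox4i1 (420), and complex V by Atp5b, the catalytic beta subunit, at 340. The lowest complex V member was Atp5s, known as factor B, at 9.16 CPM per kb.

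**Figure D1:**
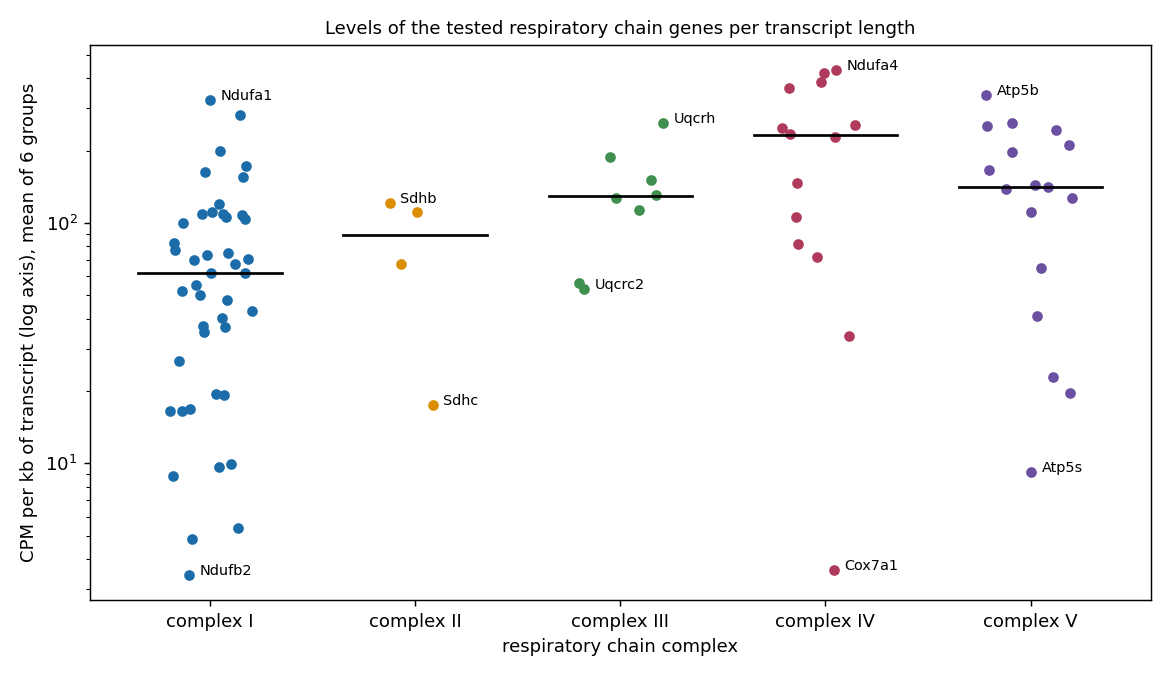
Level of each of the 87 tested genes in CPM per kb of transcript (log axis, mean of the 6 groups), by complex; each point is a gene and each bar the median of the complex. The medians run from 61.9 in complex I to 232 in complex IV, and the highest and lowest gene of each complex is named.

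Several complex IV subunits have a general form and a form known from heart and muscle, lung or testis. Libraries of these mast cells held almost only the general forms. Cox6a2, Cox7b2, Cox8b and Cox8c had 0 counts in all 10 libraries, Cox4i2 had 1 count and Ndufa4l2 had 3 counts in all libraries together; these are the 6 members below the filter. A count of 0 in a library allows up to 3 counts, which was 1.29 to 2.42 CPM here and covers counting error only. Beside them, Cox4i1 had 5910 counts, Cox8a 3788, Ndufa4 3683, Cox6a1 2721 and Cox7b 2005.

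The exceptions were Cox6b2, known as the testis form of subunit 6B, with 243 counts, and Cox7a1, known as the heart and muscle form of subunit 7A, with 32 counts. Cox6b2 was at 7.77 and 3.51 CPM in the IL-3 libraries, 17.0 and 9.45 with SCF, 17.3 and 10.7 with SCF plus 1 ng/mL TGF-β, 21.0 and 9.77 with SCF plus 10 ng/mL TGF-β, and 12.7 and 27.2 with TGF-β at 1 and 10 ng/mL alone. Every treated library was thus above both IL-3 libraries. In every group with 2 libraries, replicate 1 was above replicate 2. Cox6b2 made up 2.20% to 15.8% of the subunit 6B transcripts per length. No comparison called it: the change was 1.65 ± 0.52 on the log2 scale (± SE throughout) for TGF-β alone against IL-3, at an adjusted p of 0.0986 in edgeR's quasi-likelihood test. Cox7a1 reached 3.50 and 6.30 CPM with SCF and stayed between 0 and 2.17 CPM elsewhere, which is near the level that 3 counts give.

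Subunit c, which forms the rotor ring of ATP synthase, is encoded by 3 genes for the same mature protein. Atp5g3 made up 73.2% to 81.6% of their transcripts per length in each library, Atp5g1 7.80% to 12.6% and Atp5g2 6.34% to 16.1%. The shares depend on the annotated lengths, 718.5 bases for Atp5g3, 2675.5 for Atp5g1 and 586 for Atp5g2. Before division by length, the counts in all libraries together were 1939, 952 and 254. Atp5g3 was therefore the leading gene in every group.

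Summed over the 79 tested members other than the complex I assembly factors, the level was 8270 and 7905 CPM in the IL-3 libraries. It was 9735 and 10730 CPM with SCF, 9292 and 9721 with SCF plus 1 ng/mL TGF-β, and 9099 and 9158 with SCF plus 10 ng/mL TGF-β. The libraries of TGF-β alone had 6799 CPM at 1 ng/mL and 7647 at 10 ng/mL. All 6 libraries with SCF were above all 4 without it, and the 2 libraries of TGF-β alone were the lowest. The 8 assembly factors did not share this order, with a summed level of 162 and 167 CPM in IL-3, 143 to 156 CPM in the 6 libraries with SCF, and 174 and 148 CPM with TGF-β at 1 and 10 ng/mL alone.

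**Figure D2:**
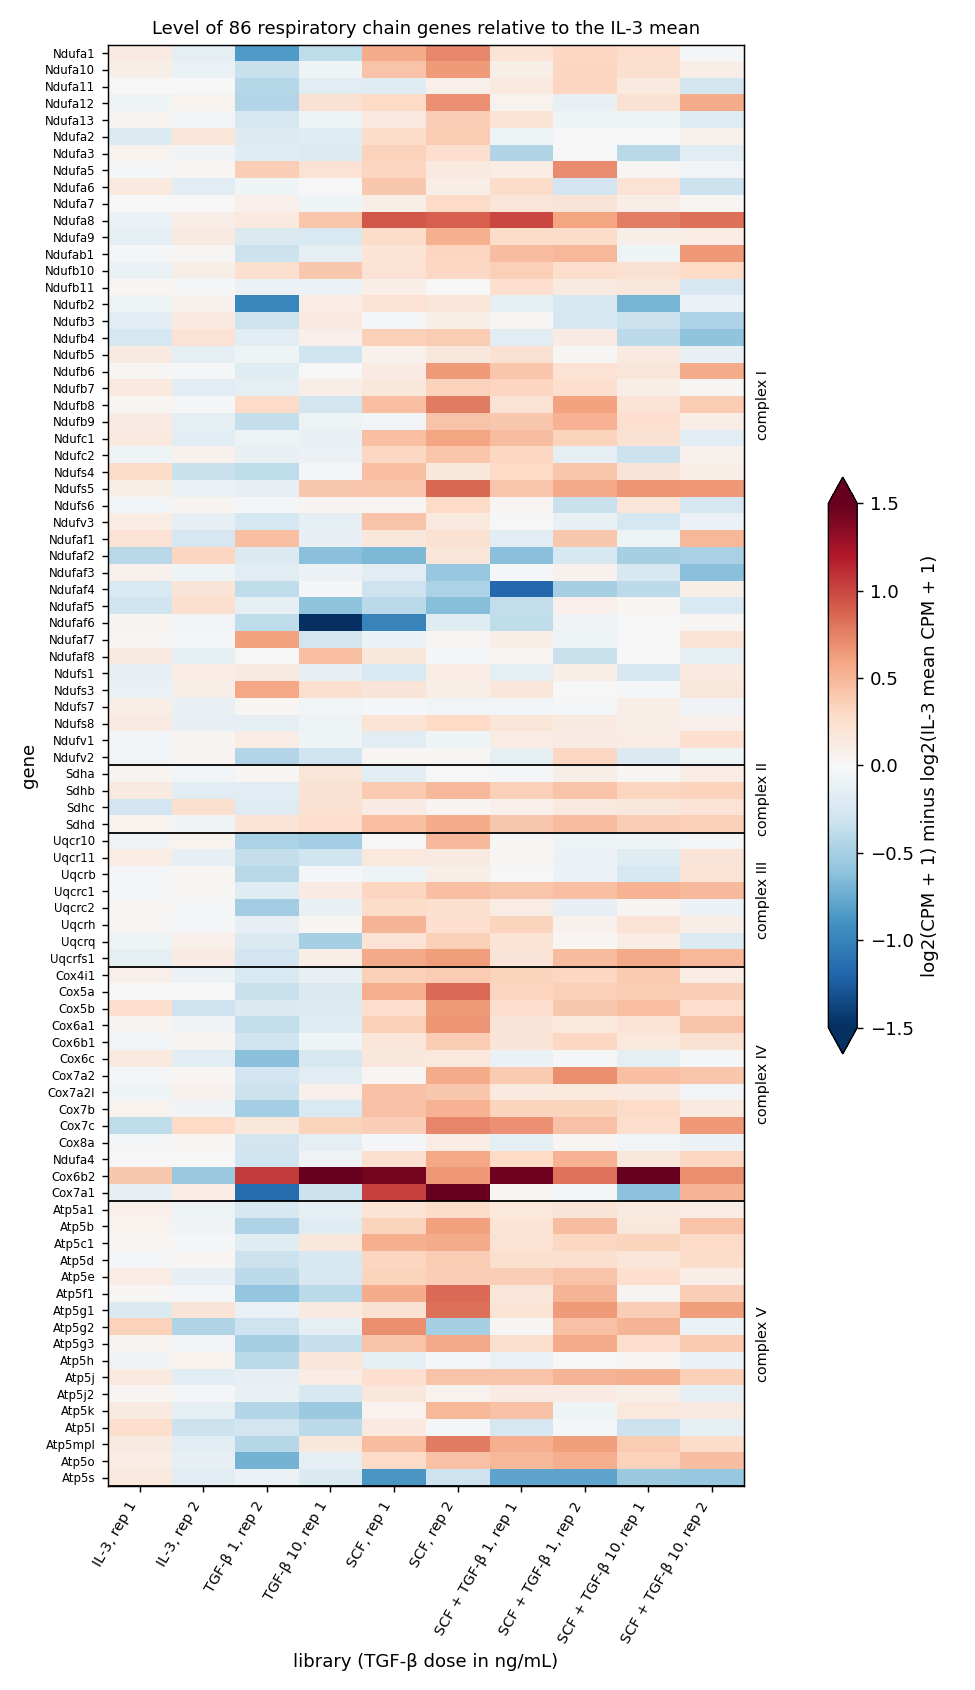
Level of 86 of the 87 tested genes (rows, grouped by complex) in each of the 10 libraries (columns), as the log2 of CPM plus 1 minus the log2 of the IL-3 mean plus 1; red is higher and blue lower than IL-3, with the colour scale ending at 1.5. The 6 columns with SCF are mostly red in complexes III to V, while Ndufa8 is red in all 8 treated columns and the assembly factors Ndufaf1 to Ndufaf8 are mixed.

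The first comparison asks what SCF does to these genes in cells kept in IL-3. In all, 9 members rose and none fell. They were Ndufa8 and Ndufa1 of complex I, Uqcrfs1 of complex III, Cox5a and Cox6a1 of complex IV, and Atp5b, Atp5c1, Atp5f1 and Atp5mpl of complex V. That is 9 of 87 tested members, or 10.3% (edgeR quasi-likelihood test, Benjamini-Hochberg adjusted p under 0.05 over all 11247 tested genes), against 9.17% of all tested genes called, 5.71% higher and 3.46% lower. All 9 were higher, so the like share of all tested genes is 5.71%. The shift was broad and small: 74 of 87 members had a positive log2 fold change, with a median of 0.28 against -0.02 for all tested genes. At an unadjusted p under 0.05 there were 34 members (39.1%), all of them higher, against 23.3% of all tested genes, 12.6% higher. Both SCF libraries were above both IL-3 libraries for 56 members and below them for 6, against 26.2% and 27.1% of all tested genes.

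Ndufa8, an accessory subunit of complex I on its intermembrane face, had the largest called change. It was at 37.8 and 43.5 CPM in IL-3 and at 78.6 and 76.3 CPM with SCF, a log2 fold change of 0.94 ± 0.20 (adjusted p = 0.00664). The groups did not overlap, and the gap between them was far wider than the spread within each. Ndufa1 rose from 144 and 120 CPM to 195 and 218 CPM, by 0.64 ± 0.16 on the log2 scale (adjusted p = 0.0176). No other complex I gene passed the test: the complex had a median log2 fold change of 0.25 over 44 genes.

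The core subunits of complex I, which carry the electron path from NADH to coenzyme Q, had a lower median than the accessory subunits with SCF (0.02 over 7 genes against 0.30 over 29, a difference that was not tested). Ndufs1, the largest iron-sulfur subunit, was at 89.6 and 106 CPM in IL-3 and 83.6 and 106 CPM with SCF (log2 fold change -0.05 ± 0.19, adjusted p = 0.912). Ndufv1, which binds NADH, was at 89.1 and 94.0 CPM against 82.1 and 87.6 CPM (-0.11 ± 0.16, adjusted p = 0.728). The groups overlapped for Ndufs1. For Ndufv1 both SCF libraries were below both IL-3 libraries, by a difference that did not pass the test. None of the 8 assembly factors passed, and 6 of them had a negative log2 fold change (median -0.28), the lowest being Ndufaf6 at -0.65 ± 0.50.

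In complex II no gene passed. Sdhb was at 131 and 107 CPM in IL-3 and 157 and 166 CPM with SCF (0.43 ± 0.15, adjusted p = 0.0870), and the membrane anchor Sdhd was at 69.4 and 64.6 against 92.1 and 99.0 CPM (0.51 ± 0.16, adjusted p = 0.0594). Sdha was at 322 and 306 against 278 and 316 CPM, overlapping (-0.08 ± 0.13). Whether the subunits differed from one another was not tested. In complex III, Uqcrfs1, the Rieske iron-sulfur protein, rose from 58.6 and 70.2 CPM to 96.1 and 99.6 CPM (0.61 ± 0.17, adjusted p = 0.0366). All 8 complex III genes had a positive value (median 0.28).

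Complex IV had the largest median of the 5 complexes, 0.44, and all of its 14 tested genes had a positive log2 fold change. In 13 of them (92.9%) both SCF libraries were above both IL-3 libraries, against 26.2% of all tested genes. Cox5a, which lies on the matrix side of the oxidase, rose from 139 and 140 CPM to 204 and 252 CPM (0.71 ± 0.15, adjusted p = 0.00701). Cox6a1, the general form of subunit 6A, rose from 139 and 131 CPM to 173 and 214 CPM (0.52 ± 0.16, adjusted p = 0.0463). Cox4i1, which is known to sense adenine nucleotides, was at 308 and 276 CPM against 376 and 381 CPM and did not pass (0.37 ± 0.14, adjusted p = 0.112).

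In complex V (median 0.35 over 17 genes), 4 genes rose. The beta subunit gene Atp5b went from 625 and 579 CPM to 761 and 922 CPM (0.48 ± 0.15, adjusted p = 0.0467). Atp5c1, the gamma subunit that turns inside the catalytic head, went from 219 and 210 CPM to 309 and 316 CPM (0.54 ± 0.13, adjusted p = 0.0169). Of the parts outside the head, Atp5f1, subunit b of the stalk, went from 295 and 286 CPM to 427 and 526 CPM (0.71 ± 0.16, adjusted p = 0.0102). The membrane proteolipid gene Atp5mpl went from 62.2 and 50.5 CPM to 78.1 and 97.7 CPM (0.62 ± 0.18, adjusted p = 0.0420). In none of these 4 genes, named because they passed the test, did the 2 groups overlap. Of all tested genes, 26.2% were higher without overlap and 27.1% lower. The alpha subunit gene Atp5a1 was at 672 and 601 against 733 and 770 CPM and did not pass (0.24 ± 0.12, adjusted p = 0.261).

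The call for single genes depended on 1 library on either side. DESeq2's Wald test called 4 of the 87 members, and the number called was 3 without IL-3 replicate 1, 1 without IL-3 replicate 2 and 1 without SCF replicate 2. In both fits with 1 call, the gene was Ndufa8 (log2 fold change 1.03 and 0.96). Over all tested genes the number called was also lower in each of these alternatives, with DESeq2's Wald test 439 of 11247 against 1031 by edgeR. The median over the members was 0.25 to 0.35 in all alternatives run.

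**Figure D3:**
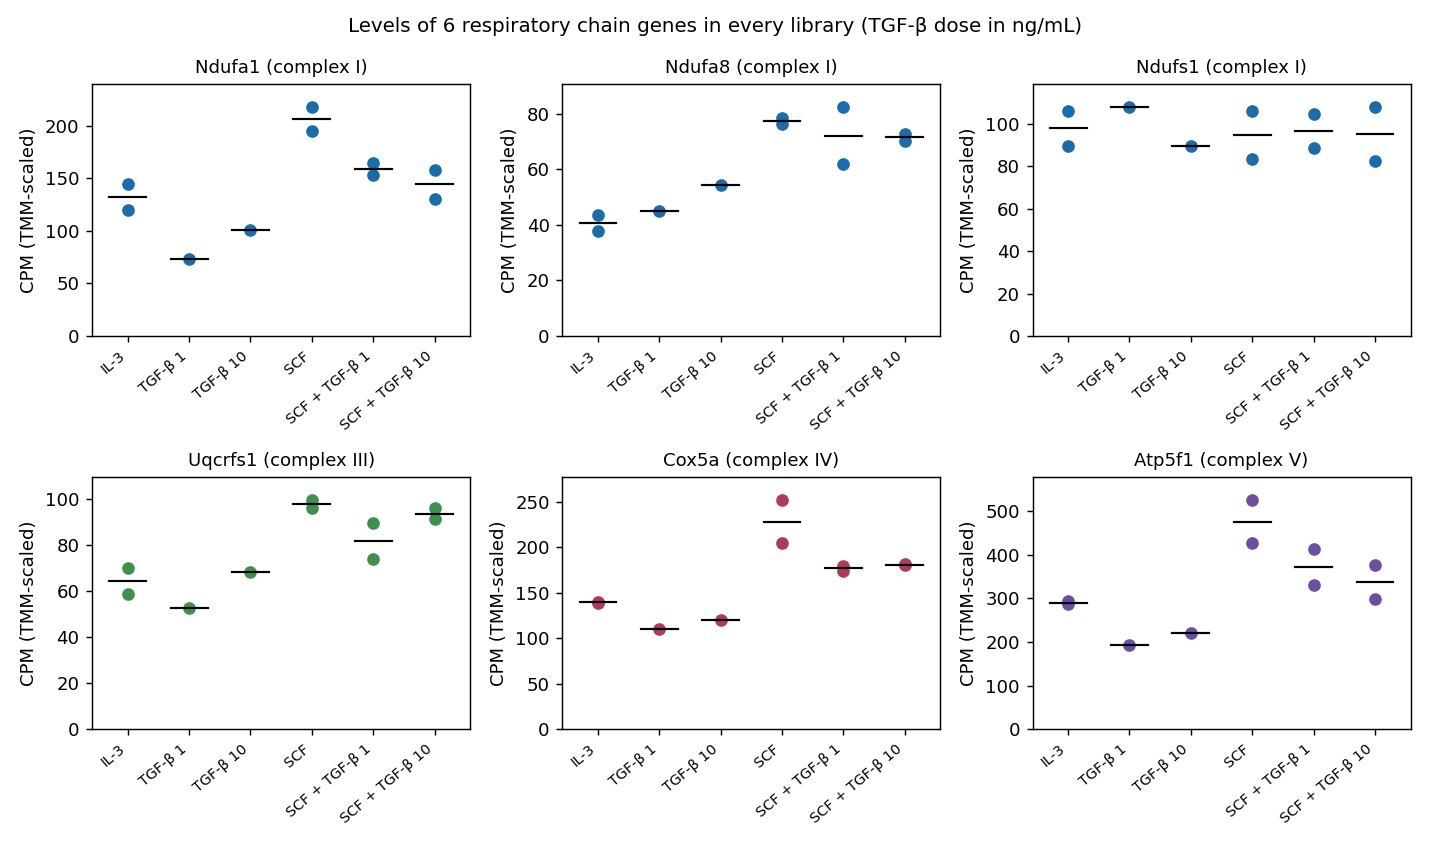
Level in TMM-scaled CPM of 6 genes in every library (points), by group, with the group mean as a bar (a single library is its own mean); the axes start at 0. Ndufa8, Uqcrfs1, Cox5a and Atp5f1 are higher in all SCF libraries than in both IL-3 libraries, Ndufa1 is lowest with TGF-β alone, and Ndufs1 lies between 82.2 and 108 CPM throughout.

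The same question can be asked in cells that also received TGF-β. This comparison shares no library with the first, and sets the 4 libraries of SCF with TGF-β against the 2 of TGF-β alone. Here 23 of 87 members rose and none fell, with a median log2 fold change of 0.31 against -0.01 for all tested genes. This comparison called many genes of all kinds, 24.7% of all tested genes, with 13.3% higher and 11.4% lower, and the 26.4% of members called is to be read against that. An unadjusted p under 0.05 was reached by 37 members (42.5%), all higher, against 36.8% of all tested genes, 19.1% higher. All 4 libraries were above both of TGF-β alone for 44 members, against 23.6% of all tested genes.

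The called genes lay mainly in the last 2 complexes: 8 of 14 in complex IV and 9 of 17 in complex V, against 4 of 44 in complex I, 0 of 4 in complex II and 2 of 8 in complex III. The median log2 fold changes were 0.19, 0.15, 0.36, 0.48 and 0.49 in complexes I to V. Complex I here includes the 8 assembly factors, none of them called. The complexes also differ in level, and whether that affected the calls was not tested. The largest called change was that of Atp5o, the stalk subunit that joins the head of ATP synthase (OSCP). It was at 51.8 and 76.9 CPM with TGF-β at 1 and 10 ng/mL alone, and at 120, 125, 109 and 118 CPM with SCF added (0.90 ± 0.15, adjusted p = 0.000465). Atp5g3 was at 66.2 and 73.8 CPM against 111, 138, 113 and 124 CPM (0.79 ± 0.16, adjusted p = 0.00146). Neither of these stalk and ring genes overlapped between the groups. Atp5f1 was at 193 and 220 CPM against 331, 413, 299 and 376 CPM (0.78 ± 0.15, adjusted p = 0.00108), and Atp5b was at 437 and 531 CPM against 692, 831, 675 and 807 CPM (0.64 ± 0.13, adjusted p = 0.00191). Of the 5 subunits of the catalytic head, Atp5a1, Atp5b, Atp5d and Atp5e rose, and the gamma subunit gene Atp5c1 did not pass (0.30 ± 0.12, adjusted p = 0.0800).

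In complex IV, Cox7a2, the general form of subunit 7A, was at 109 and 118 CPM with TGF-β alone and at 175, 215, 183 and 178 CPM with SCF added (0.73 ± 0.16, adjusted p = 0.00362). Cox7b was at 69.6 and 84.7 CPM against 126, 125, 122 and 110 CPM (0.65 ± 0.14, adjusted p = 0.00323). Cox5a was at 110 and 120 CPM against 174, 180, 181 and 180 CPM (0.63 ± 0.14, adjusted p = 0.00300). All 3 were separated by more than the spread within either group. Cox4i1, Cox5b, Cox6a1, Cox6b1 and Ndufa4 also rose, by 0.40 to 0.56 on the log2 scale.

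In complex I, Ndufa1 was at 73.0 and 101 CPM with TGF-β alone and at 153, 164, 158 and 130 CPM with SCF added (0.82 ± 0.15, adjusted p = 0.000977). Ndufa8 (0.54 ± 0.18, adjusted p = 0.0334) and the accessory subunit Ndufb9 (0.54 ± 0.17, adjusted p = 0.0237) rose, while Ndufs1 (-0.04 ± 0.17) and Ndufv1 (0.12 ± 0.14) did not pass. Of the core subunits 1 of 7 was called higher (14.3%, median 0.12), and of the accessory subunits 3 of 29 (10.3%, median 0.19). Of all tested genes 13.3% were called higher. In complex III, Uqcrfs1 (0.54 ± 0.16, adjusted p = 0.0223) and the core protein gene Uqcrc1 (0.50 ± 0.12, adjusted p = 0.00675) rose. Uqcrc1 was at 158 and 195 CPM with TGF-β alone and at 239, 245, 257 and 251 CPM with SCF added. In complex II, Sdha was at 318 and 355 CPM against 309, 335, 318 and 338 CPM, so its groups overlapped (-0.05 ± 0.12).

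The deviating library of TGF-β at 1 ng/mL set much of this count. Without it, 4 members (4.6%) were called higher, against 11.3% of all tested genes called, 6.04% higher. Of the 23, Atp5f1 (0.69, adjusted p = 0.0300), Atp5g3 (0.71, adjusted p = 0.0321) and Cox5a (0.57, adjusted p = 0.0496) were still called. The fourth, the assembly factor Ndufaf6 (3.14 ± 0.98, adjusted p = 0.0490), is a gene of few counts that did not pass with all libraries (1.72, adjusted p = 0.0557). The other 20 kept a positive value, of 0.28 to 0.67, at adjusted p-values of 0.0523 to 0.427: Atp5o was at 0.61 (adjusted p = 0.0524), Cox7a2 at 0.67 (adjusted p = 0.0523), Ndufa1 at 0.58 (adjusted p = 0.0643), Atp5b at 0.50 (adjusted p = 0.0658), Cox7b at 0.51 (adjusted p = 0.0851) and Uqcrc1 at 0.35 (adjusted p = 0.166). The median over members was 0.27, and 53 members were above the remaining library of TGF-β alone in all 4 libraries and 10 below it, against 33.5% and 33.8% of all tested genes. DESeq2's Wald test on all libraries called 14.

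**Figure D4:**
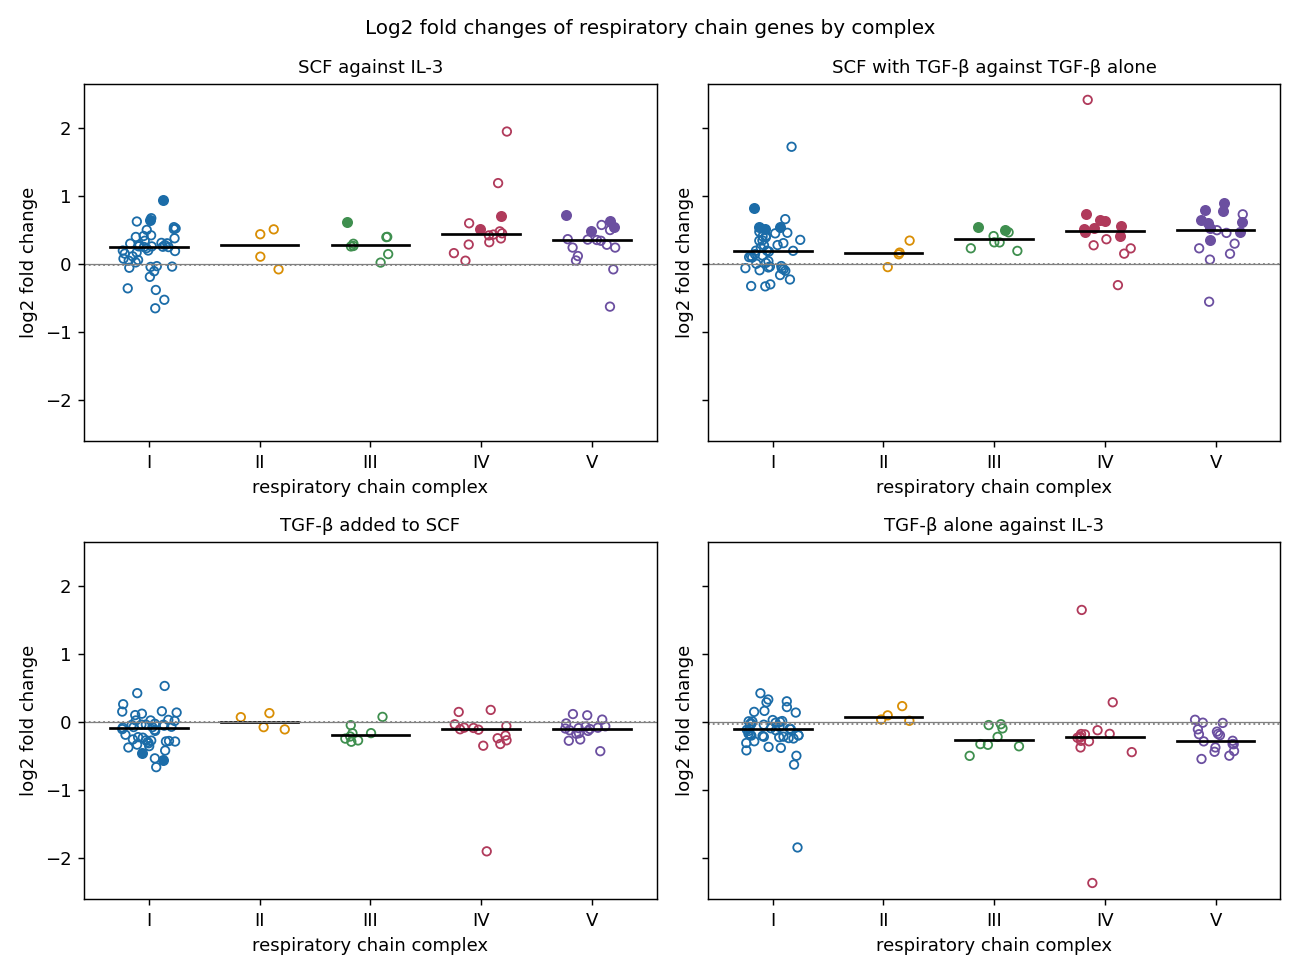
Log2 fold change of each of the 87 tested genes in 4 comparisons, by complex; filled points passed an adjusted p of 0.05, bars are medians of the complex and the dotted line is the median of all tested genes. Both comparisons of SCF (top) have positive medians in all 5 complexes, with filled points in complexes I, III, IV and V, and the only filled points with TGF-β added to SCF are Ndufa1 and Ndufa3.

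Of the 9 genes called with SCF against IL-3, 8 (88.9%) were also called with SCF among the cells given TGF-β, where they made up 34.8% of the 23 genes called. Atp5c1 was the exception. Over all tested genes, 81.5% of the 642 called higher in the first comparison were also called higher in the second, where they made up 34.9% of 1500. Without the library of TGF-β at 1 ng/mL the shared members were 2 of 9 (22.2%), against 51.8% of the 653 genes called higher in the first comparison in that fit. The log2 fold changes of the 87 members had a Pearson correlation of 0.48 and a Spearman correlation of 0.54 between these comparisons. It is across genes that share library depth, and is a description. In both comparisons 65 members had a positive value, 7 had a negative one in both, and 15 had opposite signs. The interaction of SCF and TGF-β, which tests whether the change with SCF differed with TGF-β present, called no member, against 0.293% of all tested genes. At an unadjusted p under 0.05 there were 3 members (3.45%) by edgeR, against 9.15% of all tested genes, and DESeq2's Wald test called no member.

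Promoter sequences are shown for the gene with the largest called rise with SCF over IL-3 in each of complexes I, III, IV and V. The genes were chosen by that rise, and whether they are regulated together was not tested. Each is 280 bases on the gene's own strand, from 250 before to 30 after the RefSeq start, from GRCm38.p6. Ndufa8 (ENSMUSG00000026895) lies on the minus strand of chromosome 2 with its window at chr2:36049309-36049588, Uqcrfs1 (ENSMUSG00000038462) on the minus strand with its window at chr13:30545287-30545566, Cox5a (ENSMUSG00000000088) on the plus strand with its window at chr9:57520982-57521261, and Atp5f1 (ENSMUSG00000000563) on the minus strand with its window at chr3:105959234-105959513. Capitals mark matches to any of the 4 motifs searched.
Ndufa8: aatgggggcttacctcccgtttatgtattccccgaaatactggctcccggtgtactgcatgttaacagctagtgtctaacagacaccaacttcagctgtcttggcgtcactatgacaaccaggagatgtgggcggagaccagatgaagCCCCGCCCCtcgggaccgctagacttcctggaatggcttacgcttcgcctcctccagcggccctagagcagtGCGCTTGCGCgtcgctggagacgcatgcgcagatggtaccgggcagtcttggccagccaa
Uqcrfs1: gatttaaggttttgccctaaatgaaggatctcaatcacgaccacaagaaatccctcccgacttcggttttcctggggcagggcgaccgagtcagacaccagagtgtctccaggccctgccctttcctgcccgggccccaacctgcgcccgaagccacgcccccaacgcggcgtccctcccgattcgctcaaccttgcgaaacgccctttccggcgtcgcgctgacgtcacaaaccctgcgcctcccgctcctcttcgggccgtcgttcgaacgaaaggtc
Cox5a: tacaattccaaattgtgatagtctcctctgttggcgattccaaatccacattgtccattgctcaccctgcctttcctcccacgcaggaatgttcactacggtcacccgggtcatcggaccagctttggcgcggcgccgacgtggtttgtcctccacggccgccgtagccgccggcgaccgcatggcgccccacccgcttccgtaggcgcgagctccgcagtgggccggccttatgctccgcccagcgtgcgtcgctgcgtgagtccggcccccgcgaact
Atp5f1: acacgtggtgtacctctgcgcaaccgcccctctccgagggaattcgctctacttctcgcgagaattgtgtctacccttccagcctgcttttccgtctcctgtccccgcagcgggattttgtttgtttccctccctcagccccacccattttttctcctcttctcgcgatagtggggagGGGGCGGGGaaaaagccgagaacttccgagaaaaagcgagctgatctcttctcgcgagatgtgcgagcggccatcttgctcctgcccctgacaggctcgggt

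The motifs, searched on both strands from 250 bases before to 50 after the start, were the NRF1 consensus (its match is seen in Ndufa8), CCGGAAG for GABP, AAGATGGCG for YY1 and GGGGCGGGG for SP1, a general GC-box factor. Ndufa8 had an NRF1 match at -30 and an SP1 match at -102 from the start, and Atp5f1 an SP1 match at -72. The windows of Uqcrfs1 and Cox5a held none of these letters, which says nothing of the factors themselves. Of the 87 tested members, 74 had a promoter entry. For 2 of these, Atp5f1 and Atp5s, the entry stands under a newer symbol and was matched through the older one. The NRF1 letters were in 24.3% of these 74 promoters, against 12.0% of the 8145 tested genes with an entry and 6.86% of all 16854 protein-coding entries. The YY1 letters were in 9.46%, against 3.74% and 2.01%. GABP (23.0%, against 21.3% of tested genes) and SP1 (17.6%, against 22.5%) were near the share of tested genes. Among the 19 promoters of members that rose with SCF in either comparison, 26.3% held the NRF1 letters, against 23.6% of the 55 that were not called. For SP1 the shares were 21.1% and 16.4%, for GABP 15.8% and 25.5%, and for YY1 0% and 12.7%. At least 1 of the 4 motifs was in 47.4% and 61.8%, and these differences were not tested.

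Adding TGF-β to SCF lowered 2 members and raised none, against 9.26% of all tested genes called, 5.34% lower and 3.92% higher. Both were accessory subunits of complex I. Ndufa3 was at 116 and 109 CPM with SCF, at 66.5 and 90.8 CPM with 1 ng/mL TGF-β added and at 68.4 and 82.0 CPM with 10 ng/mL added (-0.56 ± 0.15, adjusted p = 0.0253). Ndufa1 was at 195 and 218 CPM with SCF and at 153, 164, 158 and 130 CPM with TGF-β added (-0.45 ± 0.13, adjusted p = 0.0410). In both genes every library with TGF-β was below both SCF libraries. No member was called when either SCF library, or the first library given SCF plus 1 ng/mL TGF-β, was left out. Leaving out the first library given SCF plus 10 ng/mL TGF-β left 1 call, and DESeq2's Wald test called none.

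No other member passed the test with TGF-β on top of SCF. The median over all 87 was -0.10, with 67 negative values, and 12 members (13.8%) were under an unadjusted p of 0.05, all lower, against 21.6% of all tested genes, 11.4% lower. Among those that did not pass, Cox7a1, the low-count muscle form of subunit 7A (-1.90 ± 0.70, adjusted p = 0.107), and Ndufb4 (-0.66 ± 0.26, adjusted p = 0.132) had values larger in size than both called genes. Of the genes that rose with SCF, 2 were nearest the threshold: Atp5f1 (-0.43 ± 0.13, adjusted p = 0.0551) and Cox5a (-0.35 ± 0.12, adjusted p = 0.0957). Cox5a was at 204 and 252 CPM with SCF and at 174, 180, 181 and 180 CPM with TGF-β added. Every library with TGF-β and SCF was below both SCF libraries for 24 members, against 15.7% of all tested genes. Because the comparison of SCF with IL-3 uses the same SCF libraries, a high value there would enter both.

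The doses of TGF-β on top of SCF, 1 and 10 ng/mL, gave no called difference in these genes. No member was called by edgeR, where 0.0178% of all tested genes were (0.00889% higher and 0.00889% lower). By edgeR 1 member (1.15%) was under an unadjusted p of 0.05, against 2.78% of all tested genes, and DESeq2's Wald test called no member. The median log2 difference of 10 against 1 ng/mL was -0.06. Atp5b, the highest member of complex V, was at 692 and 831 CPM with 1 ng/mL and 675 and 807 CPM with 10 ng/mL.

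TGF-β alone against IL-3 called no member by edgeR's quasi-likelihood test, where 3.48% of all tested genes were called (1.36% higher and 2.12% lower). The side of TGF-β has 1 library per dose, whose spread is taken from the other groups. At an unadjusted p under 0.05 there were 10 members (11.5%), 9 lower and 1 higher (Cox6b2), against 15.6% of all tested genes, 9.08% lower, and DESeq2's Wald test called none. The median was -0.18, with 67 of 87 members negative, and both TGF-β libraries were below both IL-3 libraries for 36 members and above them for 6, against 22.1% and 21.9% of all tested genes. Ndufa1 was at 144 and 120 CPM in IL-3 and at 73.0 and 101 CPM with TGF-β at 1 and 10 ng/mL (-0.63 ± 0.17, adjusted p = 0.0577). Atp5f1 was at 295 and 286 CPM against 193 and 220 CPM (-0.49 ± 0.17, adjusted p = 0.127). Its change was -0.40 ± 0.21 without the library of 1 ng/mL. Without the library of 1 ng/mL the median over the members was -0.09, no member was called (2.14% of all tested genes were), and Ndufa1 was at -0.39 ± 0.21 (adjusted p = 0.457). The remaining TGF-β library was below both IL-3 libraries for 46 members and above them for 21, against 36.9% and 37.2% of all tested genes.

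Among the subunits encoded in mitochondrial DNA, the genes that passed the test were lower with SCF. Of the 13 genes, 7 passed the filter. The genes mt-Nd4l, mt-Atp6 and mt-Atp8 had 0 counts in total, mt-Nd3 and mt-Co2 1 and mt-Co3 3, beside 89600 for mt-Nd1. Reads aligned to more than 1 place in the genome were set apart in the deposited table (37.2% to 55.6% of reads), and 2.04% to 2.85% as ambiguous between genes. Whether either set aside the reads of these 6 genes was not tested, and their counts are not read as levels. With SCF against IL-3, 2 of the 7 (28.6%) fell and none rose, against 3.46% of all tested genes called lower. The mt-Nd4 gene, for a proton-pumping subunit of complex I, was at 1084 and 1081 CPM in IL-3 and 748 and 766 CPM with SCF (-0.52 ± 0.12, adjusted p = 0.0119). The mt-Nd2 gene was at 458 and 463 CPM against 297 and 359 CPM (-0.49 ± 0.14, adjusted p = 0.0372). In both genes the groups did not overlap, but mt-Nd2 lost its call without any 1 of the 4 libraries, and mt-Nd4 without IL-3 replicate 2 or either SCF library.

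In the cells given TGF-β, 5 of the 7 fell with SCF and none rose: mt-Nd2 (-0.79 ± 0.12), mt-Nd4 (-0.76 ± 0.10), the cytochrome b gene mt-Cytb (-0.60 ± 0.10), the complex IV gene mt-Co1 (-0.40 ± 0.10) and mt-Nd5 (-0.32 ± 0.10), at adjusted p-values of 4.73e-05 to 0.0325. These are 71.4% of the 7, against 11.4% of all tested genes called lower. The mt-Cytb gene was at 3386 and 3852 CPM with TGF-β alone and at 2248, 2411, 2343 and 2554 CPM with SCF added. Without the library of 1 ng/mL TGF-β, mt-Nd2, mt-Nd4, mt-Cytb and mt-Co1 were still called and mt-Nd5 was not (-0.30, adjusted p = 0.155); without the library of 10 ng/mL, mt-Co1 and mt-Nd5 were not called. The call on mt-Nd5 was also lost without replicate 1 (-0.29) or 2 (-0.32) of the combination at 1 ng/mL, or replicate 1 at 10 ng/mL (-0.27). Not every gene took part: mt-Nd1 did not pass in either comparison (0.16 ± 0.13 and -0.15 ± 0.11).

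The ratio of the summed mitochondrially encoded level to the summed level of the 79 nuclear genes put the libraries in order. It was 2.02 and 2.11 in IL-3, 1.47 and 1.53 with SCF, 1.42 and 1.46 with SCF plus 1 ng/mL TGF-β, 1.47 and 1.66 with SCF plus 10 ng/mL TGF-β, and 2.53 and 2.51 with TGF-β alone. All 6 libraries with SCF were below both IL-3 libraries, and both libraries of TGF-β alone were above them. Being a ratio within a library, it does not depend on the scaling between libraries, and it does not show which of its sides changed. Its mitochondrial side rests almost wholly on the 7 genes that passed the filter. The largest part is mt-Nd1, which did not pass in either comparison of SCF.

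**Figure D5:**
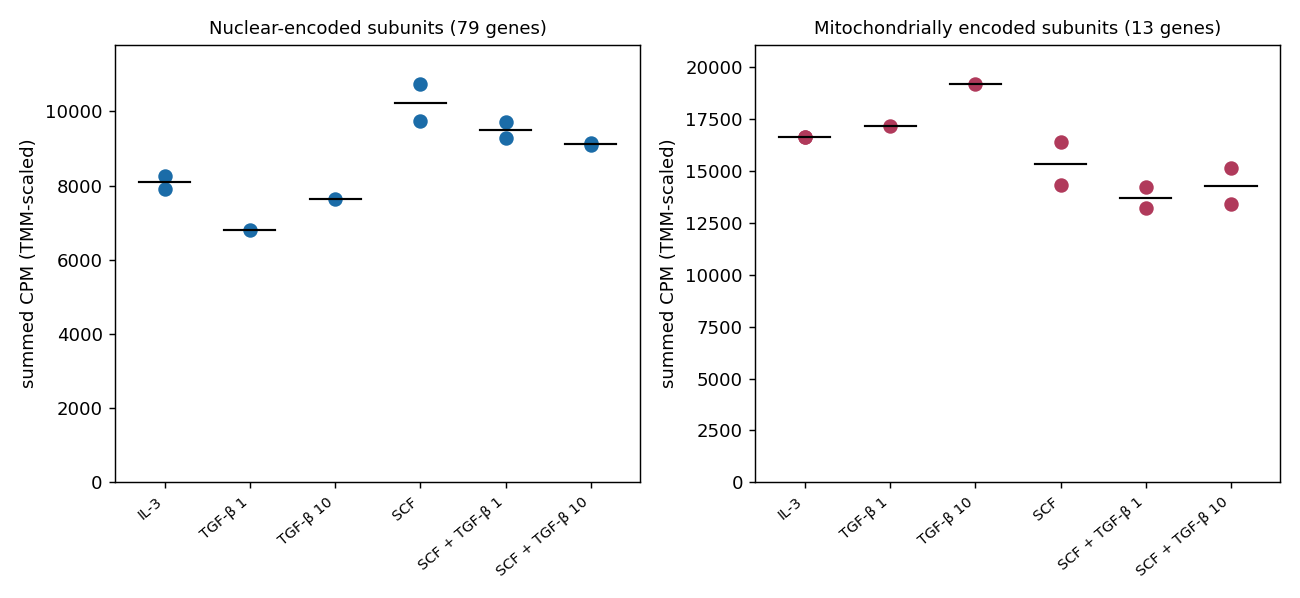
Summed level in TMM-scaled CPM of the 79 nuclear-encoded genes (left) and the 13 mitochondrially encoded genes (right) in every library, with group means as bars (a single library is its own mean). The nuclear sum is 9099 to 10730 in the 6 libraries with SCF and 6799 to 8270 in the others. The mitochondrial sum runs from 13239 to 19183, highest with TGF-β at 10 ng/mL alone. It rests almost wholly on the 7 genes that passed the filter.

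Genes around the chain were read from lists of pathway members. Of 17 tested genes of the citric acid cycle and pyruvate dehydrogenase, which supply the NADH and succinate, 3 rose with SCF against IL-3 and none fell (median 0.28). Citrate synthase, Cs, went from 261 and 209 CPM to 363 and 405 CPM (0.71 ± 0.15, adjusted p = 0.00800), malate dehydrogenase, Mdh2, rose by 0.54 ± 0.16 and the pyruvate dehydrogenase subunit Pdha1 by 0.63 ± 0.17. With SCF among cells given TGF-β, 3 also rose: Mdh2 (0.57 ± 0.14), fumarase Fh1 (0.53 ± 0.19) and the isocitrate dehydrogenase subunit Idh3a (0.99 ± 0.20). Cs was lower when TGF-β was added to SCF (-0.43 ± 0.13, adjusted p = 0.0442), at 265, 318, 269 and 294 CPM. Mdh2 was the one called in both comparisons of SCF, and the interaction called none of the 17 genes. The 3 of 17 are 17.6% in each, against 5.71% and 13.3% of all tested genes called higher.

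Of 40 tested assembly factors of the complexes that the naming rule does not reach, none rose. Cox17, a copper chaperone for complex IV, fell with SCF against IL-3 (-1.67 ± 0.49, adjusted p = 0.0426), from 9.33 and 12.6 CPM to 3.50 and 3.15 CPM, close to the level of 3 counts. It also fell with SCF among cells given TGF-β (-1.68 ± 0.39), as did the complex I assembly factors Tmem186 (-1.09 ± 0.21) and Tmem126b (-0.79 ± 0.25). Tmem186 was at 53.5 and 38.1 CPM with TGF-β alone and at 20.2, 17.8, 23.2 and 23.3 CPM with SCF added. The genes that fell were 2.5% of the 40 with SCF against IL-3, against 3.46% of all tested genes called lower. Among cells given TGF-β they were 7.5%, against 11.4%. Over the 6 comparisons, 0.00889% to 13.3% of all tested genes were called higher. With all libraries, no tested assembly factor rose in any of the 6 comparisons, within the naming rule or outside it; Ndufaf6 did without the library of TGF-β at 1 ng/mL, as given above.

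Of the 20 tested genes of electron carriers (cytochrome c and c1, coenzyme Q synthesis, and enzymes that feed electrons to coenzyme Q, such as Etfdh, Dhodh and Gpd2), none passed with SCF in either comparison, and Coq10b, a coenzyme Q binding protein, rose when TGF-β was added to SCF (0.85 ± 0.24, adjusted p = 0.0340). It was at 14.5 and 13.9 CPM with SCF and at 25.7, 25.5, 23.7 and 28.2 CPM with TGF-β added. Coq10b is 5% of the 20, against 3.92% of all tested genes called higher. In the 2 comparisons of SCF, 9.17% and 24.7% of all tested genes were called. Of 15 tested regulators of mitochondrial gene expression and biogenesis, Myc was the one called, higher with SCF among cells given TGF-β (1.02 ± 0.16, adjusted p = 0.000211) at 190, 181, 200 and 191 CPM against 92.5 and 94.8 CPM. That 1 of 15 is 6.67%, against 13.3% of all tested genes called higher. Of 77 tested genes of the mitochondrial ribosome, which makes the mitochondrially encoded subunits, none passed with SCF against IL-3 (median 0.23). In that comparison 5.71% of all tested genes were called higher and 3.46% lower. In the cells given TGF-β, Mrpl18, Mrpl20, Mrpl28, Mrpl42 and Mrps23 rose with SCF by 0.60 to 0.78, which is 6.49% of the 77 against 13.3% of all tested genes called higher. With TGF-β alone against IL-3, Mrpl33 fell (-1.25 ± 0.27, adjusted p = 0.0132), from 40.4 and 47.0 CPM to 18.7 and 17.9 CPM. Mrpl33 is 1.3% of the 77, against 2.12% of all tested genes called lower.

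These calls on single list genes rested on few libraries. Without the library of TGF-β at 1 ng/mL, Cox17 and Myc were still called with SCF among cells given TGF-β, and the citric acid cycle genes, both Tmem genes and the 5 ribosomal genes were not (Idh3a 0.62, adjusted p = 0.129, and Tmem186 -0.85, adjusted p = 0.0597). Without the library of 10 ng/mL the calls on Cox17, Fh1, Tmem126b, Mrpl18, Mrpl28 and Mrps23 were lost. In the same comparison, leaving out replicate 2 of the combination at 10 ng/mL ended the calls on Fh1, Tmem126b, Mrpl20 and Mrps23. Leaving out replicate 2 at 1 ng/mL ended those on Fh1, Tmem126b and Mrps23, and leaving out replicate 1 at 1 ng/mL that on Tmem126b. The fall of Mrpl33 with TGF-β alone had about the same size without the library of 1 ng/mL (-1.27, adjusted p = 0.0619) or of 10 ng/mL (-1.22, adjusted p = 0.106) but was not called there, nor without IL-3 replicate 2. Of the calls with SCF against IL-3, Cs was lost without IL-3 replicate 2 or SCF replicate 2, Cox17 and Pdha1 without any 1 of the 4 libraries compared, and Mdh2 without any of them but SCF replicate 1. Libraries outside the comparison, which share the estimate of spread, also ended a call: that of TGF-β at 10 ng/mL for Cox17 and replicate 2 of the combination at 10 ng/mL for Mdh2. The calls on Cs and Coq10b with TGF-β added to SCF were lost without either library of SCF alone, or without replicate 2 of the combination at 10 ng/mL. At 1 ng/mL, leaving out replicate 1 of the combination ended both calls, and leaving out replicate 2 ended that on Coq10b. Leaving out replicate 1 at 10 ng/mL ended that on Cs.

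Many genes of the chain have processed pseudogenes with nearly the same sequence. Reads that fit both places are not counted on either, so levels per length can be too low, and comparisons of level between genes are less certain than comparisons of 1 gene between libraries. The 12 pseudogenes whose symbols match the naming rule were left out; 11 had a row, with at most 21 counts each.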

How the data were processed

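RNA from 10 samples of cultured mouse mast cells was made into SmartSeq2 libraries, without molecular identifiers, and sequenced as paired reads, per the labels' protocols. Raw gene-level read counts were deposited by the authors. The submitters' processing notes name STAR, HTSeq and DESeq2 with GRCm38 (mm10); versions, annotation and strand setting: not given in the sources used here. All columns were used, and 5 rows that name no gene were left out.

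Symbols came from GENCODE on GRCm38. Counts were scaled by TMM, filtered by filterByExpr and tested with edgeR 4.0.16 quasi-likelihood F tests in R 4.3.3, with 1 mean for each of the 6 groups, 4 residual degrees of freedom and Benjamini-Hochberg adjustment over 11247 genes in each of 6 contrasts. Groups with 1 library are assumed to vary like the others. The steps were tested on simulated data. Members, lists and comparisons were chosen with earlier results of these data known. Genes named are 10 fixed anchors, the 10 largest called changes per direction, isoform sets, the extremes of level per complex and called list genes; further members are named where they complete a complex, chosen after their values were seen. The values of 1 member and 1 marker are not reported here; both stay in the counts, sums and medians. Alternatives were DESeq2 1.42.0 (size factors, Wald test), limma-voom 3.58.1, other filters, only the groups compared, a replicate block, leaving out repeat and mitochondrial loci, and leaving out each library.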

Additional observations from a re-analysis of the deposited data

How the results depend on the processing

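The number of members called with SCF against IL-3 (9) was 4 with DESeq2's Wald test and 20 with a replicate block, and 1 to 9 when each library was left out in turn. With SCF and TGF-β against TGF-β alone (23) it was 14 with DESeq2's Wald test, 28 with the block, and 4 to 24 when leaving out libraries, the lowest without the library of TGF-β at 1 ng/mL. With TGF-β added to SCF (2) it was 0 with DESeq2's Wald test, 4 with the block, and 0 to 2 when leaving out libraries. With TGF-β alone against IL-3 (0) it was 2 without a filter on low counts, 3 with only the groups compared, 3 with the block and 0 when any library was left out. The dose comparison and the interaction stayed at 0 in every alternative run. No call in the 2 comparisons of SCF was lower in any alternative, and other scalings, limma-voom, other filters and leaving out mitochondrial, ribosomal RNA and satellite loci gave 8 to 9 and 22 to 23. The values without those loci were 9 and 23. The cause of these changes was not tested.

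Genes near 0 changed sign when 1 library was left out. With SCF against IL-3, Ndufs1 ranged from -0.21 to 0.12 and Sdha from -0.17 to 0.00796. With SCF and TGF-β against TGF-β alone, Ndufs1 ranged from -0.18 (without the 10 ng/mL library of TGF-β alone) to 0.0946, and Sdha from -0.13 to 0.0307.

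Over all genes, DESeq2's Wald test called 439, 523, 223 and 1508 genes with SCF, with TGF-β added to SCF, with TGF-β alone and with SCF among cells given TGF-β, against 1031, 1042, 391 and 2780 by edgeR. In the same order, the replicate block called 1483, 1453, 718 and 3282 of the 11247 genes. Deviations of same-numbered replicates correlated at -0.00 to 0.23 over all genes and at 0.12 to 0.42 over the members, positive in every pair of groups. Whether the numbers pair the libraries is not stated and was not tested. The main fit does not pair them, and the block adds a fit by number. Low counts limit Ndufaf6, Cox7a1 and Cox17, where 3 counts are 1.29 to 2.42 CPM.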
